A study of Rattus norvegicus with 18 samples.

Results

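The core described here is a set of 62 bacterial sequence features that were counted in at least 5 of the 6 control libraries and in at least 1 of the 6 TG libraries. They are 62 of the 8405 features (0.738%) in a count table of 16S rRNA gene amplicons from rat intestinal contents, also labelled stool, and they hold 343056 of its 594034 counts (57.8%). A feature is a distinct amplicon sequence left after denoising and clustering of the reads. The control group was untreated, the model group had induced radiation enteritis, and the TG group, whose label reads TCM treatment, received a therapeutic intervention that the labels do not describe. The series text places TG after disease induction and treatment, but no label says outright that TG rats were irradiated. Every sample is labelled wild-type and batch 1, and each group has 6 samples called biological replicates, with no animal named per sample. The labels give no strain, sex, age, radiation dose or sampling time.

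A core microbiota is the part of a community that recurs in nearly every host of a group. In the rodent gut the abundant residents are mostly strict anaerobes that ferment fibre and host glycans, and a genome often carries several slightly different copies of the 16S gene, so that features can be fewer or more than organisms. Radiation enteritis is injury of the intestinal lining by ionising radiation, and stool communities are commonly profiled in it. The files do not pair the count table with the taxonomy table: the identifiers in common number 0. No core feature therefore has a taxon or a known role here, and the label of the material could not be checked against bacterial names. Core features are numbered 1 to 62 by their mean share of counts in control, 1 being the highest. Feature 1 is 2c36761e0911786576b68a081455164a, feature 9 is 59c5bd27fd9beada774d5dc518d24534 and feature 52 is 34d86e3964aa0b94eb74adc42714647f.

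The members were chosen by counts above 0 in control and TG, so TG against control is a description with no test, and from tests of model against control nothing is read. A share of counts is relative: the total number of bacteria was not measured, so fewer bacteria of a feature and more of the others cannot be told apart. Library totals ran from 33076 to 40192 counts in control, from 30958 to 33342 in model and from 23894 to 40575 in TG. Model 1, model 3 and TG 5 stand apart, with 278, 198 and 276 features each, against 446 or more in every other library. Values without these 3 libraries are given where they matter.

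The core held most of each control library and a variable part of the others. Its share of counts in control was 67.7% at the lowest, 77.0% at the median and 82.1% at the highest, with a mean of 76.0% ± 4.80 (SD, n = 6). In model the lowest, median and highest library held 19.3%, 54.2% and 92.5%, with a mean of 55.2% ± 23.6 (SD, n = 6). In TG these values were 15.9%, 32.8% and 67.1%, with a mean of 34.1% ± 18.4 (SD, n = 6). Model 3 lay above every control library, model 5 was the lowest of its group, and every TG library lay below every control library. The highest model and TG values belong to libraries with few features; without model 1, model 3 and TG 5 the means were 45.7% in model and 27.5% in TG. Features with counts in 1 to 4 control libraries held 23.7% ± 4.82 in control, 21.8% ± 11.2 in model and 24.9% ± 8.24 in TG (SD, n = 6 each). Features with no control count made up the remainder, 23.0% ± 18.5 in model and 41.0% ± 13.4 in TG (SD, n = 6 each).

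**Figure D1:**
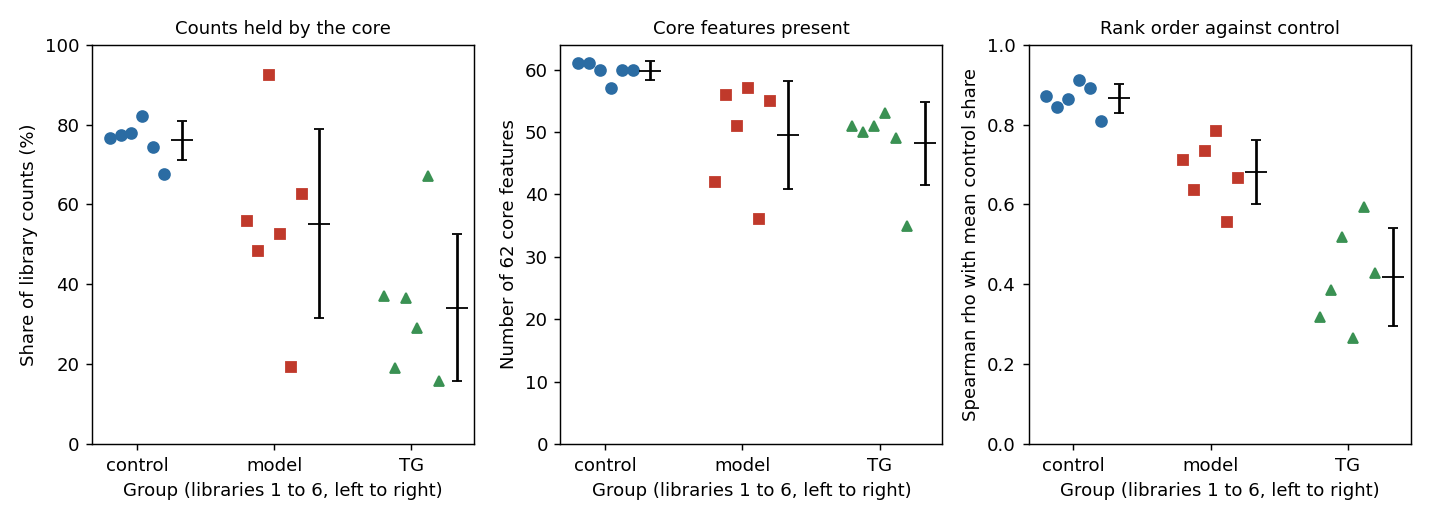
Each point is 1 library, ordered 1 to 6 within its group, and the bar beside each group is the mean ± SD (n = 6). From left to right the panels give the share of library counts held by the 62 core features in percent, how many of the 62 were present, and Spearman's rho of the core's shares with their mean in control (for a control library, the mean of the other control libraries). The mean share of counts is 76.0% in control and 34.1% in TG, while 35 to 53 core features are still present in TG libraries.

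The number of core features present differed less between groups than their share of counts. Control libraries held 57 to 61 of the 62, with a mean of 59.8 ± 1.47 (SD, n = 6). Model libraries held 49.5 ± 8.60 (SD, n = 6), from 36 in model 5 and 42 in model 1 to 57 in model 4. TG libraries held 48.2 ± 6.59 (SD, n = 6), from 35 in TG 6 to 53 in TG 4. The shallowest library, TG 2 with 23894 counts, held 50 core features, and the deepest, TG 5 with 40575, held 49. Thinning every library to 23894 counts left the mean share of members present at 96.5%, 79.8% and 77.7% in control, model and TG. Thinning could change little here, since only 14 of 945 positive core entries were under 10 counts. It also acts on counts that were already denoised, so the part of sequencing depth in presence was not tested.

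The high control value is partly set by the rule, which asks for presence in control. To measure this, the list was rebuilt without each control library in turn, asking for at least 4 of the other 5 and at least 1 TG library. The rebuilt lists had 65 to 79 features, and the library left out held 83.9% ± 7.33 of its list (SD, n = 6), compared with 96.5% ± 2.37 in the full rule. The same rebuilt lists were present at 75.0% in model and 73.9% in TG, averaged over libraries and lists. The counts held by the core in a left-out control library are the same under both rules by construction, and the rebuilt lists held 55.7% of model and 34.9% of TG counts on average.

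Prevalence separated an abundant, nearly universal part of the core from a patchier part. In model 26 features were in all 6 libraries and 18 in 5, and in TG 28 were in all 6 and 17 in 5. In all, 35 of the 62 met both, with at least 5 model and at least 5 TG libraries. In the full data 19 features were counted in all 18 libraries, and each of the 19 is a core feature. Features 1 to 14, with control means from 8.57% down to 0.854%, were in all 6 model libraries without exception, and 12 of the 14 were in at least 5 TG libraries; the exceptions were features 9 and 10. Among features 41 to 62, with control means of 0.199% and below, 7 of 22 were in at least 5 model libraries and 12 of 22 in at least 5 TG libraries. Feature 62 had counts in 2 TG libraries and in none of the 6 model libraries. Features that recurred in at least 5 of 6 libraries of a group numbered 65 in control, 65 in model and 89 in TG. Core features were 44 of the 65 in model (67.7%, and 71.0% of the core) and 45 of the 89 in TG (50.6%, and 72.6% of the core).

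**Figure D2:**
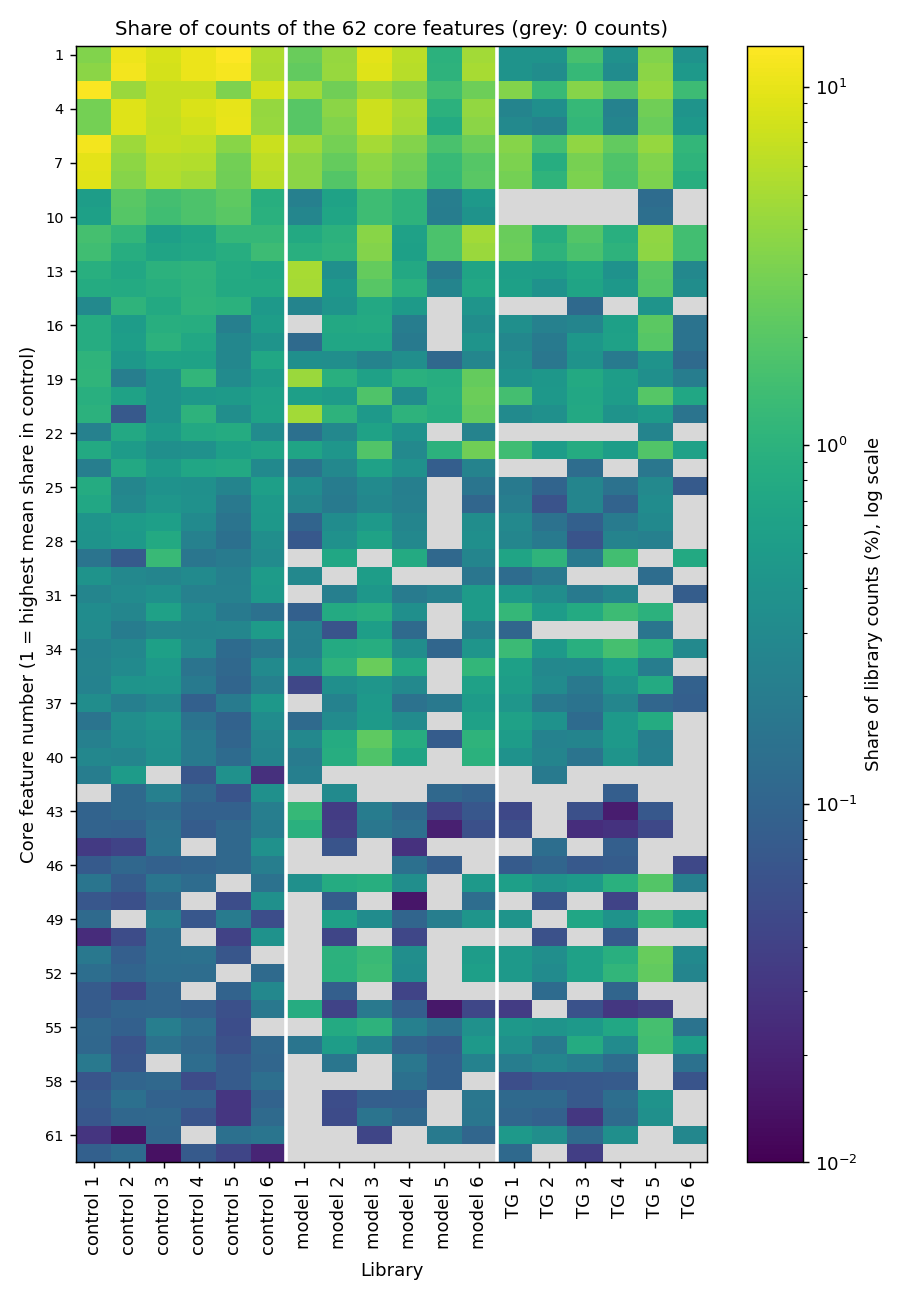
Share of library counts of each core feature (rows, numbered by mean control share) in each of the 18 libraries (columns), in percent on a log colour scale, with grey for 0 counts. Features 1 to 8 have counts in every library, features 9 and 10 are grey in 5 of 6 TG libraries, and TG 6 and model 5 have the most grey cells of their groups, 27 and 26.

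At the edge of the rule, 13 members were in 5 control libraries and 5 were in 1 TG library. Those 13 had control means from 0.0763% to 0.199%. Just outside, 29 features were in 4 control libraries and at least 1 TG library, with control means from 0.0104% to 0.317%. Only 3 features met the control side of the rule and had no TG count, with control means of 0.137%, 0.0910% and 0.0642%. These 3 also had 0 of 193760 counts in model, so that over the 12 model and TG libraries they were at least 169-fold, 112-fold and 79.3-fold lower than in control, against a floor of 3 counts over all 12 libraries. Their TG zeros follow from how these 3 features were picked, so only the model counts were free to differ. The TG part of these limits is therefore no finding. Such limits cover counting error only, because amplified reads are not independent molecules. Of the 65 recurrent control features, 95.4% were thus found in at least 1 TG library.

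The rank order of the core was close to the control order in control libraries and less so in model and TG. Spearman's rho across the 62 features, between a library's shares and the mean control share, was 0.865 ± 0.0358 in control (SD, n = 6, each against the other 5 libraries). In model it was 0.681 ± 0.0798, from 0.556 in model 5 to 0.783 in model 4. In TG it was 0.419 ± 0.123, from 0.265 in TG 4 to 0.595 in TG 5 (SD, n = 6 each). Every control library lay above every model and TG library, while TG 5 (0.595) lay above model 5 (0.556). Between group means, rho was 0.761 for control and model, 0.497 for control and TG, and 0.789 for model and TG; without the 3 libraries with few features these were 0.720, 0.397 and 0.758. These are descriptions across features that share libraries and often move together, and the features are not independent points. Of the 10 leading core features of control, 8 were among the 10 leading ones of model and 6 among those of TG. In control the 10 most abundant features of a library included 9 or 10 core features, in model 3 to 10 and in TG 2 to 10.

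Counts were also spread over more core features outside control. In control libraries 4 to 6 core features made up 50% of the core's counts, in model 6 to 8 and in TG 7 to 11. Features 1 to 8 held 73.2% ± 2.54 of the core's counts in control, 51.8% ± 8.04 in model and 38.7% ± 7.42 in TG (SD, n = 6 each). Because these 8 were numbered by their control means, a high part in control is in some measure fixed by that choice. With the 10 leading core features of each group taken by its own means, they made up 77.2% of the core's counts in control, 59.7% in model and 52.0% in TG. As a share of all counts these 8 features went from 55.7% ± 4.81 in control to 28.8% ± 13.5 in model and 13.6% ± 8.38 in TG (SD, n = 6 each). The other 54 features together held 20.3% ± 1.57 in control, 26.4% ± 11.7 in model and 20.5% ± 10.5 in TG (SD, n = 6 each). The difference between the control and TG means of the whole core is thus of the size of that in its 8 leading features.

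**Figure D3:**
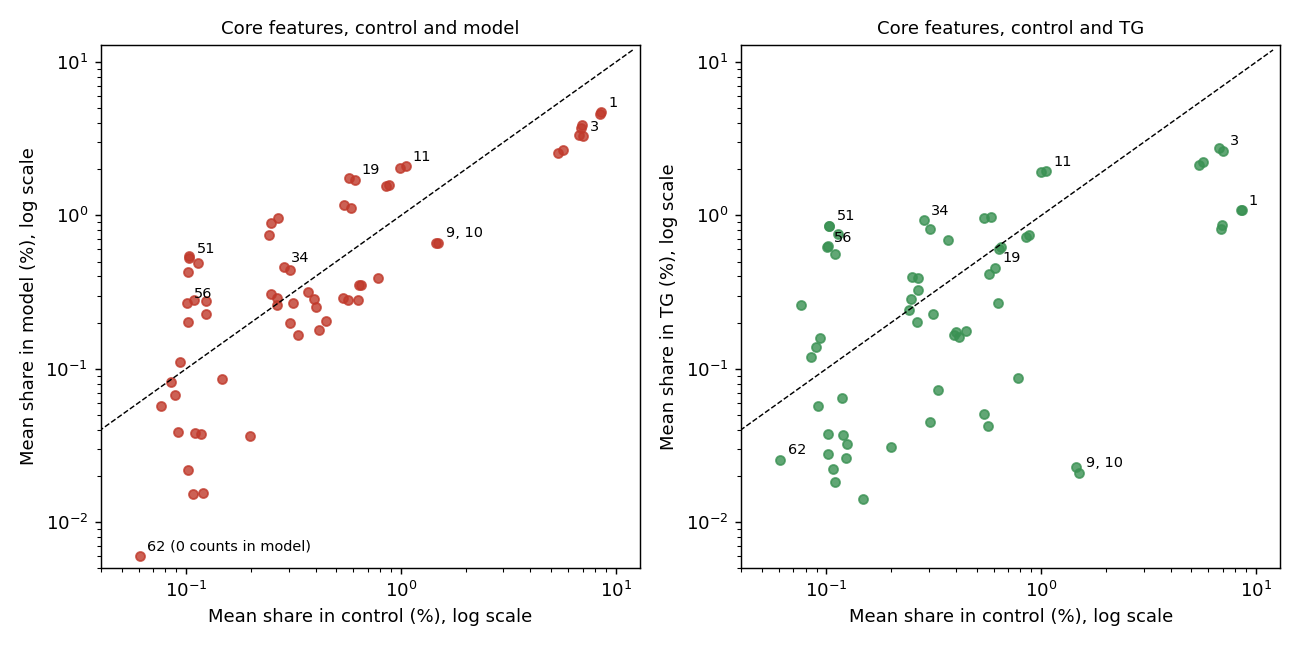
Mean share of counts of each of the 62 core features in control (x axis) against model (left) and TG (right), in percent on log axes; the dashed line marks equal shares and numbers name features. Feature 62, with 0 counts in model, is drawn near the bottom of the left panel. Features 1 to 8 lie below the line in both panels, features 9 and 10 lie far below it in TG, and features such as 11, 34 and 51 lie above it.

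Of the 62 features, 41 had a lower and 21 a higher mean share in TG than in control, and 37 a lower and 25 a higher mean share in model than in control. Among features 1 to 20 the TG mean was lower in 17, and among features 21 to 62 in 24 of 42. The climb in rank was largest for features 51 and 52, followed by 55 and 56, with 38 places within the core for the former pair and 34 for the latter. The largest drops were those of features 9, 10 and 15, by 51, 48 and 29 places. Feature 51 ranged from 0% to 0.175% in control with a median of 0.115%, from 0% to 1.30% in model with a median of 0.438%, and from 0.303% to 2.47% in TG with a median of 0.544%. Every TG library exceeded every control library, while model libraries spanned both ranges. Feature 52 had control, model and TG medians of 0.124%, 0.455% and 0.537%, and its highest TG value was 2.32%, again in TG 5. Feature 34, at a control median of 0.261%, had a model median of 0.377% and a TG median of 0.961%. Control and TG libraries overlapped for it, since control 3 held 0.596% and TG 6 held 0.296%.

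Counting features whose 6 TG libraries all lay on the same side of all 6 control libraries, 9 core features were lower in TG (features 4, 5, 9, 10, 24, 30, 33, 43 and 44) and 4 were higher (features 47, 51, 52 and 56). Over the 431 features of the table with at least 10 counts in at least 4 libraries, the shares without overlap were 2.09% lower and 6.03% higher in TG. The 62 core features are all among those 431. Since the rule used these 2 groups, nothing is read from the counts of 9 and 4. Without control 5 the 9 became 16, and without TG 5 they became 15. For model against control the counts were 1 lower (feature 62) and 0 higher, beside 0.232% and 0.464% of the 431, without control 5 the 1 became 3, and without model 5 the 0 became 1. For TG against model they were 2 lower (features 9 and 10) and 0 higher, beside 0.928% and 0.232%, and without model 3 the 2 became 4. Shares over all features are not given for the counts with a library left out, so nothing is read from those changes.

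Many core features varied together from library to library. Joining features by average linkage at a correlation of 0.9 between square roots of shares gave 14 sets of 2 or more, holding 46 of the 62 features, with 7 pairs among them. Features 1 to 26 all belong to a set. These sets were drawn from the same values and are a description with no test. How steady the proportions within a set were differed from pair to pair. Feature 2 was counted at 0.927 to 1.10 times feature 1 in control libraries, at 0.916 to 1.05 times in model and at 0.760 to 1.24 times in TG. Feature 6 stood at 0.897 to 1.09, 0.971 to 1.13 and 0.840 to 1.21 times feature 3 in the same order, although feature 3 itself ranged from 1.24% to 12.4% of counts. Feature 21 was less tied to feature 19, at 0.341 to 1.40 times over all libraries.

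The 2 leading sets together held 81.5% ± 3.89 of the core's counts in control, 56.9% ± 9.77 in model and 40.8% ± 8.06 in TG (SD, n = 6 each). Set 1 has 9 features (1, 2, 4, 5, 9, 10, 15, 22 and 24) and set 2 has 7 (3, 6, 7, 8, 18, 25 and 26). The balance between them varied widely in control, where set 2 stood at 0.257 times set 1 in control 5 and at 3.08 times in control 1. Set 2 exceeded set 1 in 2 of 6 control libraries, in 2 of 6 model libraries and in 6 of 6 TG libraries. The ratio had a median of 0.673 in control, 0.553 in model and 3.22 in TG, and the highest value, 10.2, was in TG 1. TG 5 had the lowest ratio of its group, 1.19, and control 1, control 6, model 1 and model 5 lay within the TG range, so the groups overlap. In the order of mean shares, features 6, 3, 7 and 8 took places 1 to 4 of the core in TG, whereas feature 1 moved from place 1 to 7 and feature 5 from 5 to 15.

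**Figure D4:**
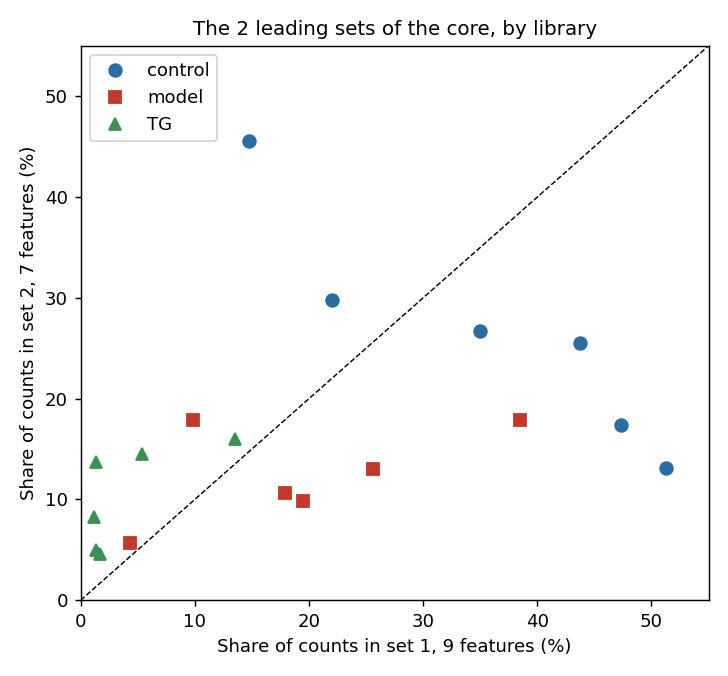
Share of library counts held by set 1 (x axis, 9 features) and set 2 (y axis, 7 features), in percent, with 1 point per library and a dashed line where both are equal. All 6 TG points lie above the line and 5 of them have under 6% of counts in set 1; control points run from 14.8% to 51.3% along the x axis.

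Model libraries were not used to choose the core, and TG libraries entered the rule only through a count above 0 in at least 1 of them. Set against model, TG addresses what the intervention left different after disease induction, as far as the series text gives its purpose. All 62 core features were tested within a fit over the 431 features, using edgeR's quasi-likelihood test with Benjamini-Hochberg adjustment. It called 6 core features, all lower in TG, beside 1.39% of all tested features called lower and 0% called higher. They are features 1, 2, 4, 5, 9 and 10, all of set 1, and the 431 features gave no other call. At an unadjusted p under 0.05 there were 9 core features, 8 lower and 1 higher. The share of all 431 features at that cut is not given here, so nothing is read from this count. The median log2 fold change was -0.37 over the core and 0.27 over all 431 features; with RLE factors, another scaling, these were 0.24 and 0.78.

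Feature 1 held 0.996%, 4.50% and 9.58% of counts at the lowest, median and highest in model, and 0.372%, 0.398% and 3.37% in TG. The ranges overlap: TG 3 and TG 5 lay above model 5, and the other 4 TG libraries lay below every model library. Its log2 fold change was -1.96 (SE 0.54, edgeR adjusted p = 0.0384, n = 6 per group), which is -2.24 relative to the median of all features. Features 2, 4 and 5 had log2 fold changes of -1.95, -2.02 and -2.05 with the same adjusted p. Feature 9 held 0.213%, 0.550% and 1.42% in model, and in TG it was counted in TG 5 alone, at 0.126%. Every model library lay above every TG library. Its log2 fold change was -4.74 (SE 1.17, edgeR adjusted p = 0.0195), and feature 10 followed with -4.61 (SE 1.18, edgeR adjusted p = 0.0195). Over all 6 libraries the mean share of feature 9 was 0.663% in model and 0.0209% in TG, and that of feature 10 was 0.660% and 0.0230%.

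These calls depended on single libraries and on the scaling. With each library left out in turn the number of core features called ranged from 0 to 7: it was 0 without model 4, TG 1 or TG 6, 2 without model 6 and 4 without model 3. In these settings no other tested feature was called. Without model 1, model 3 and TG 5 together 7 core features were called, beside 8 of all 405 tested features. With RLE factors it was 0 (edgeR adjusted p = 0.132 for features 1 and 9), with log2 fold changes of -1.73 for feature 1 and -4.96 for feature 9. DESeq2 called 2, features 9 and 10 (DESeq2 adjusted p = 0.0176), and gave feature 1 a log2 fold change of -1.72 (DESeq2 adjusted p = 0.288). Over the 25 alternatives tried for feature 1, its log2 fold change ran from -2.77 to -1.68. RLE factors rest on features counted in every library, here 19, all of them core features. The 6 features share a set and are not separate results.

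The 4 leading features of set 2 did not pass the test between model and TG. Feature 3 had model values of 1.46%, 3.09% and 4.77% and TG values of 1.24%, 2.70% and 4.23% at the lowest, median and highest. Its log2 fold change was -0.43 (SE 0.56, edgeR adjusted p = 1). Features 6, 7 and 8 had log2 fold changes of -0.38, -0.39 and -0.36 (SE 0.56, 0.60 and 0.61). Features 19 and 21, a pair with model medians of 0.936% and 1.04% and TG medians of 0.418% and 0.382%, had log2 fold changes of -2.12 and -2.27 and did not pass (edgeR adjusted p = 0.294 and 0.225). Features 11 and 12, which form a set with features 20 and 23, stood at medians of 1.35% and 1.39% in model and 1.70% and 1.57% in TG. Their log2 fold changes were -0.11 each.

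Features 9 and 10 did not keep their proportion to feature 1. In control libraries feature 9 stood at 0.160 to 0.188 times feature 1, and feature 10 at 0.162 to 0.178 times. In model the ratio of feature 9 ran from 0.0902 in model 1 and 0.0993 in model 6 to 0.214 in model 5. In TG 5 it was 0.0373, with 51 counts where the control proportion would give 238. In TG 3 feature 1 had 500 counts, the control proportion would give 87.2 counts of feature 9, and there were 0. In the same library features 15 and 24, which are less abundant than feature 9 in control, had 36 and 41 counts where the control proportions would give 45.4 and 31.6. Feature 22 had 0 counts there, where 33.1 would be proportional. In TG 1, 2, 4 and 6 feature 1 had 95 to 106 counts, and features 9, 10, 15, 22 and 24 had 0 each. There the control proportions would give 16.1 to 18.5 counts of features 9 and 10 and 6.00 to 9.63 of the other 3.

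**Figure D5:**
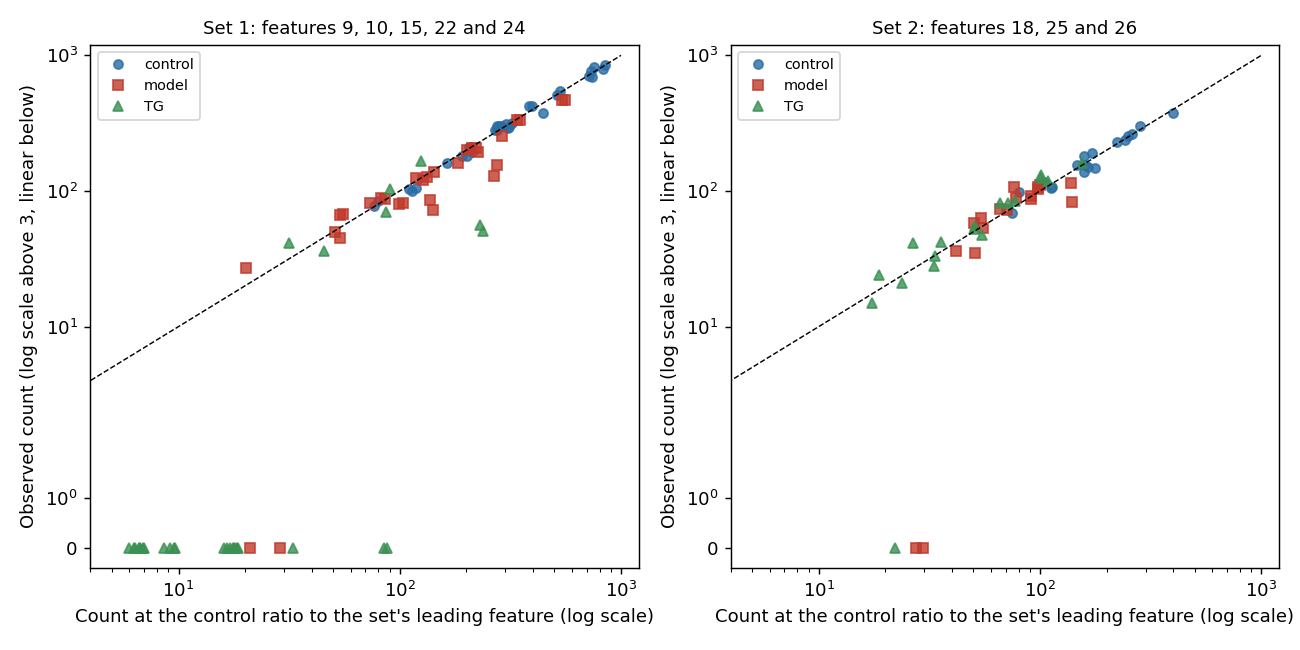
Observed counts (y axis, logarithmic above 3 and linear below) against the count that the control proportion to the leading feature of the set would give (x axis, log scale), for features 9, 10, 15, 22 and 24 of set 1 (left, relative to feature 1) and features 18, 25 and 26 of set 2 (right, relative to feature 3). Each point is 1 feature in 1 library and the dashed line marks equality. In set 1, 23 TG points lie at 0 with 6.00 to 87.2 proportional counts, while set 2 has 1 TG point and 2 model points at 0.

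Zeros of this kind bear on prevalence. Among the members of sets other than each set's leading feature, TG had 42 zeros in 192 entries, and for 25 of them the control proportion would give more than 3 counts, the upper limit that a count of 0 allows. In model 4 of 25 zeros were of this kind and in control 1 of 4. The rule allows a member at most 1 control zero, and the proportional counts come from control, so the control value was largely set by that choice. In all the remaining zeros the leading feature also had 0 counts, so those entries could not qualify. The proportions therefore follow how often the leading feature was absent as well. Low counts of core features were rare throughout: the lowest positive count was 5, and 14 of 945 positive entries were under 10, compared with 6445 of 11444 for all other features. The sources used here do not say how the denoising treats low counts, and its part in these zeros was not tested. Set 1, whose leading feature has counts in every library, supplied 23 of the 25 TG zeros.

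Between model and control, which asks what the induced disease changed, the same fit called 1 core feature, the lower feature 62, beside 2.78% of tested features called lower and 23.9% called higher. Because the rule used control, nothing is read from that count. Feature 62 held 0.0139% to 0.121% of control counts with a median of 0.0607%, and had 0 of 193760 model counts. The number of core features called ranged from 0 to 9 with each library left out in turn, and was 9 without TG 5, a library outside the comparison that shares its estimate of spread. Without TG 5, 131 of 419 tested features were called in either direction. DESeq2 called 2 other core features in this comparison, 19 and 21, higher in model, beside 70 of 431 tested features in either direction. Nothing is read from these calls either.

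Features 19 and 21 and the set of 35, 39 and 40 had their highest group median in model. So did features 14, 20 and 23, with model medians of 0.845%, 0.748% and 0.831%. Feature 19 had a lowest, median and highest share of 0.214%, 0.446% and 1.13% in control, 0.609%, 0.936% and 4.47% in model, and 0.209%, 0.418% and 0.782% in TG. Its model and control ranges overlap, and model 1 with 4.47% and model 6 with 2.42% were the highest of all 18 libraries. The set of features 35, 39 and 40 had a median sum of 0.787% in control, 2.52% in model and 0.747% in TG, with 6.51% in model 3 and 0.0814% in model 5. Features 13 and 14 had control medians of 0.855% and 0.811% and model medians of 0.699% and 0.845%, and model 1 alone held 5.08% and 4.95% of them, the highest of the 18 libraries. The set of features 43, 44 and 54 was also highest in model 1, at 2.99%, while its model median of 0.258% lay below its control median of 0.293%. Model 1, with 278 features in all and 42 core features, thus held the highest share of features 19 and 21, of 13 and 14, and of 43, 44 and 54.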

How the data were processed

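16S rRNA gene amplicons were measured in 18 libraries, 6 per group. Per the labels' protocols the authors denoised the reads and clustered them into features, and the deposited table holds the resulting counts per feature and library, not normalised. The denoising tool and its settings are not named in the labels or headers. The deposited taxonomy table has 10371 rows with a confidence, a fraction of at least 0.700 per the file headers; it shares 0 identifiers with the counts and was not used further. A feature was present at 1 or more counts, and shares are percent of all counts of a library. Means weight libraries equally.

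The members and lists were chosen with earlier results of these data known. The tests kept features that reached 10 counts in 4 or more libraries (431, holding 83.4% of counts), and edgeR 4.0.16 in R 4.3.3 (TMM factors, full library totals, quasi-likelihood test) was fitted on all 18 libraries with Benjamini-Hochberg adjustment at 0.05. An SE beside an edgeR log2 fold change is its absolute value divided by the square root of the test's F statistic. Such an SE restates the test and is no separate estimate. On simulated counts for TG against model, 80 of 200 features changed 64-fold were recovered with 16 false calls, and 0 of 200 changed 8-fold. Simulated features were drawn independently, unlike features of a set, so these rates need not hold for the data. Alternatives included RLE factors, DESeq2 1.42.0, other filters, a replicate block, thinning to 23894 counts (20 draws) and leaving out each library. Named members are the 10 highest in control, the 5 highest in model and in TG outside those 10, all called between TG and model, the 3 that climbed and the 3 that dropped most places from control to TG among the 50 highest in control or TG, and the 3 highest in control among those in no model library or 1 TG library. Feature 62, and other features named as parts of sets, of counts without overlap or as examples, were chosen after their values were seen. Nothing shows that libraries came from separate animals beyond the term biological replicate, so p-values measure the spread between these samples.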

Additional observations from a re-analysis of the deposited data

Results flagged for a closer look

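A library was set apart where its gap to the nearest other library of its group, divided by the group's range, passed Dixon's 95% critical value for 6 samples. Over 81 groups examined, 11 passed, and chance alone gives about 1 in 20; since the core was chosen on control and TG counts, that rate is only a rough guide here. TG 5 accounted for 7 of them as the highest TG library: feature 2 at 3.75%, feature 9 at 0.126%, feature 10 at 0.138%, feature 13 at 2.02%, feature 15 at 0.407%, feature 22 at 0.254% and feature 51 at 2.47% of counts. Features 9, 10 and 22 have counts in 1 TG library only, so that their gap equals the range by construction. TG 5 had 276 features in all and the highest total, 40575 counts. TG 6 had the fewest core features of its group, 35, and control 4 the fewest of control, 57. Feature 34 was highest in control 3, at 0.596%. Feature 52 had 0 counts in control 5, where its proportion to the leading feature of its set would give 25.2.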

How the results depend on the processing

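Of 267 alternatives of 18 main results, 233 were counted as kept and 34 as moved. Kept means less than 1 SD between libraries from the main value, or for counts within a factor of 1.5. Kept values can thus still differ widely: the number of core features ran from 49 to 91, all counted as kept. Counts and percentages cannot turn direction. Only the rank correlations could have, and they stayed above 0. For called single members, 0 of 174 log2 fold changes turned direction. With at least 3 TG libraries required, the core held 70.0% of control counts and 91.2% of members were present per TG library; with all 6 control libraries required, control presence was 100%, and in left-out control libraries 83.9%. With group medians, rho of model and TG was 0.693. Without the libraries under 300 features, an alternative chosen after seeing the data, members without overlap numbered 6 (lower in model than control), 4 (lower in TG than model) and 15 (lower in TG than control). Shares over all features are not given for counts without overlap in the alternatives, so nothing is read from them. Calls in TG against model were 0 with RLE factors and 2 with DESeq2. Calls in model against control were 0 without a filter, 6 when both groups were fitted alone, 9 without the libraries under 300 features and 2 with DESeq2. In the same order, 20 of 8405, 40 of 229, 117 of 405 and 70 of 431 tested features were called in either direction. The cause of these moves was not tested. With each library left out, members without overlap ranged from 0 to 1 and 1 to 3 (higher and lower in model than control), 2 to 4 (lower in TG than model) and 9 to 16 (lower in TG than control), calls in TG against model from 0 to 7 and in model against control from 0 to 9. Replicate numbers were not treated as pairing libraries in the main fit. Of 18 correlations of same-numbered deviations, from -0.289 to 0.134, 1 was over 0.1. Differently numbered libraries were not compared, so these values cannot show whether libraries were paired. With replicate number as a block, core features called were 6 in TG against model and 0 in model against control. Over all 431 features, the block gave 6 and 20 calls, against 6 and 115 in the main fit. In simulated counts for TG against model, 80 of 200 features changed 64-fold were recovered and 0 of 200 changed 8-fold, so a feature that was not called is not shown to be unchanged. The simulation changed 200 of 431 features and drew them independently, unlike core features that move together. In the data the test called features 1, 2, 4 and 5 at log2 fold changes of -1.95 to -2.05, so the simulated rates need not hold there.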
